A study of Mus musculus with 46 samples.

Results

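The genes described here encode the machinery that brings a growing secretory or membrane protein into the endoplasmic reticulum (ER), attaches its N-linked glycans and packs it into vesicles. The set holds 54 genes chosen by their place in this route, out of 31854 genes in the deposited count table. The choice was made with earlier results of these data known, so its counts beside those of all genes are a description. Of these 54, 52 have a row in the table and 50 were tested, since Srp54a and Kdelr3 lay below a mean of 1 CPM (read counts scaled for library size), and the RNA of Spcs1 and Rpn2 was not analysed here. CPM levels printed below also carry a scaling factor for each library (TMM), computed within each neuron type. Levels per kilobase carry factors computed over all 17 libraries. Srp54a also has near-identical copies in the mouse, so its level is uncertain.

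A signal peptide emerging from the ribosome is bound by the signal recognition particle, which docks on its receptor in the ER membrane and hands the chain to the Sec61 channel. Around the channel the translocon-associated protein complex, Tram1, the signal peptidase and the oligosaccharyltransferase assist insertion, cut the signal peptide and transfer glycans. Folded cargo then leaves in vesicles coated with COPII, often through cargo receptors, and escaped ER proteins return in vesicles coated with COPI, through the KDEL receptors. AgRP and POMC neurons of the arcuate nucleus are peptide-secreting cells: AgRP neurons release neuropeptides that raise food intake, and POMC neurons make the precursor of α-melanocyte-stimulating hormone, which lowers it.

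The mice carried the NuTRAP allele, in which Cre recombinase switches on a GFP-tagged ribosomal protein L10a and an mCherry-tagged nuclear membrane protein, together with AgRP-IRES-Cre or POMC-IRES-Cre, on a C57BL/6J background. All were males aged 6 to 11 weeks. Fed mice had food at all times and received saline (PBS), fasted mice went without food overnight for 18 to 20 h and received PBS, and leptin mice were fasted in the same way and received 5 mg/kg leptin, with tissue taken 3 h after the injection. Ribosome-bound RNA was pulled down from arcuate nuclei of 4 mice pooled per library, with 11 libraries from AgRP neurons (3 fed, 4 fasted, 4 leptin) and 6 from POMC neurons (2 per state), at 25581041 to 54511107 counted reads each. The neuron types come from separate Cre lines, so cell type and line cannot be told apart, and in pooled tissue fewer cells of a type and less RNA per cell cannot be told apart. The labels set the libraries of a state apart as separate samples of pooled animals, and the p-values measure the spread between these samples.

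The neuron labels were checked against their defining markers. The summed level of 6 AgRP neuron markers was 1661 to 6505 CPM in the AgRP libraries and 107 to 196 CPM in the POMC libraries. The summed level of 3 POMC neuron markers was 56.5 to 99.2 CPM in the former and 1496 to 2830 CPM in the latter. Glial markers were present in every group.

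The first comparison asked what an overnight fast does to these genes in AgRP neurons. Of the 50 genes, 17 were called higher in fasted than in fed mice and 0 lower, where a call needs an adjusted p (false discovery rate, FDR) below 0.05 and a log2 fold change beyond 0.5 in edgeR's quasi-likelihood test. Among all 13401 genes tested, 2.82% were called higher and 1.07% lower. At an unadjusted p below 0.05, 37 of the 50 were higher and 0 lower, where all genes tested gave 1656 higher and 928 lower. The fitted difference was above 0 for 49 of the 50, with a median log2 fold change of 0.40 against 0.017 over all genes tested, and the exception was Sec24b. In 35 of the 50 genes the 4 fasted libraries all lay above the 3 fed libraries, and in 0 did they all lie below, while 11.6% of all genes tested showed fasted libraries entirely above fed. Same-numbered libraries of the AgRP set varied together, and with the replicate number as a block the called genes became 20, all higher, against 4.40% of all genes; the 3 added were Sec61g, Srpr and Cope.

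**Figure D1:**
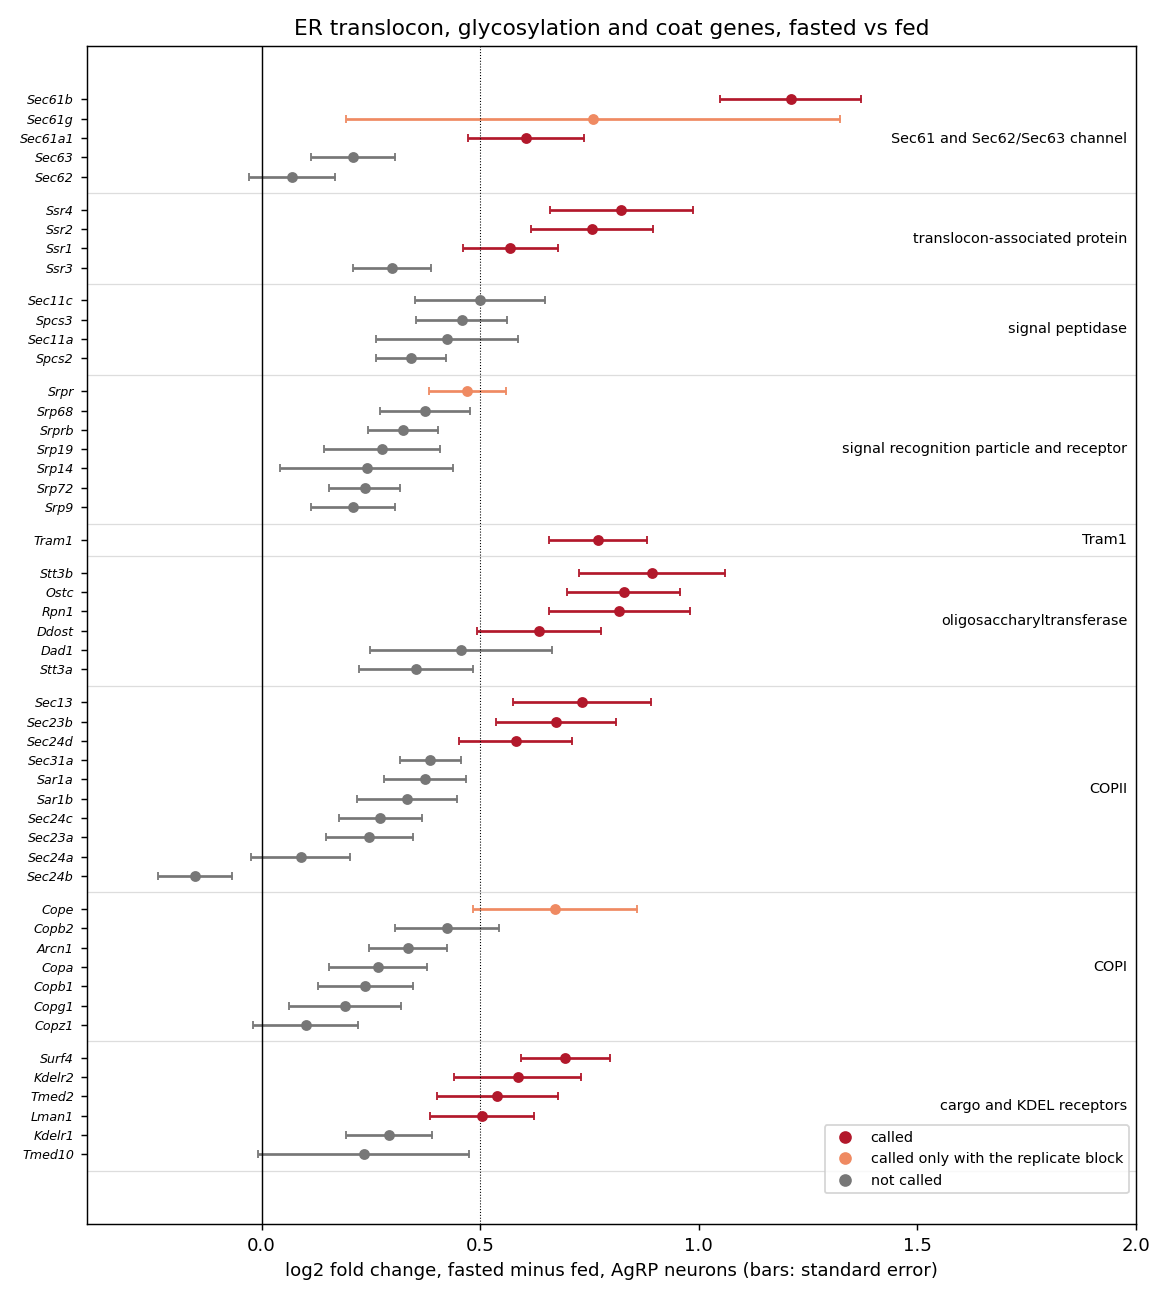
Log2 fold change of each of the 50 tested genes between fasted and fed AgRP neurons (x axis, points with standard errors), in the groups of proteins that work together (y axis); the dotted line marks 0.5. Red points are the 17 called genes, orange points the 3 called only with the replicate number as a block, and Sec24b is the only gene to the left of 0.

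The call count depended on the scaling and on single libraries. Scaling by library size alone left 3 of the 17 called (Sec61b, Ostc and Surf4), and a fit without the filter on low counts left 12, without Ddost, Sec24d, Lman1, Tmed2 and Kdelr2. The count was 4 without fed replicate 4, 5 without fed replicate 1, 6 without fasted replicate 3 and 9 without fasted replicate 1. It was 8 when all libraries numbered 2, which the fed state lacks, were left out. Over all genes the calls higher in these fits were 202, 228, 203, 254 and 257 in turn, against 378 with every library. The median log2 fold change of the 50 genes stayed between 0.34 and 0.46 when any one library was left out. Within a replicate number, the median difference of fasted over fed was 0.47 in replicate 1, 0.43 in replicate 3 and 0.45 in replicate 4, with 49, 48 and 48 of the 50 genes higher. Sec61b, Tram1, Ostc and Surf4 were called in each of the 7 fits that left out 1 library.

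Marker levels were read in the same fit. The AgRP neuron markers were Agrp, Npy, Corin, Otp, Ghsr and Acvr1c. The study reports Agrp, Npy, Otp and Acvr1c among the genes induced by fasting, and Otp and Acvr1c among those leptin lowers. For these markers a response to the feeding state and a change in the share of AgRP neuron RNA cannot be told apart. The 6 AgRP neuron markers were all higher in fasted AgRP libraries, with a median log2 fold change of 0.60 and summed levels of 1661 to 2380 CPM fed and 2957 to 6505 CPM fasted; 0 were called in edgeR (6 had an unadjusted p below 0.05), 3 in DESeq2 and 5 with the block. The 4 microglial markers tested were all lower (median fell by 0.66), with summed levels over the 5 markers listed of 21.8 to 39.6 CPM fed and 15.3 to 38.5 CPM fasted, and the 5 astrocyte markers were all lower (median fell by 0.34), with 505 to 855 CPM fed and 402 to 927 CPM fasted; 0 of either list were called, and 2 and 1 were called lower with the block. For 6 oligodendrocyte markers the median fell by 0.23, at 552 to 846 CPM fed and 486 to 794 CPM fasted, with 0 called and 1 called lower with the block. Of 4 tanycyte and ependymal markers tested 3 were higher (median 0.23), and 4 endothelial markers had a median of -0.04, with 0 called in either list and 0 at an unadjusted p below 0.05. No marker in these lists was at 0 throughout, and the part of these differences in the result was not tested.

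At the channel itself, Sec61b showed the largest change of the whole set. Sec61b (chromosome 4, 47474658 to 47483242, plus strand, GRCm38) encodes the β subunit, a small tail-anchored protein beside the pore. Its level was 14.5, 16.8 and 15.4 CPM in the fed AgRP libraries, 29.5, 34.5, 42.5 and 37.6 CPM in the fasted ones and 27.3, 31.7, 42.6 and 32.7 CPM after leptin. Every fasted and every leptin library lay above every fed one, and the fasted value was 1.21 ± 0.16 higher on the log2 scale (SE; FDR = 0.00212). Sec61a1, which forms the pore, went from 44.7 to 52.0 CPM in fed libraries to 65.0 to 80.3 CPM in fasted ones (log2 fold change 0.61 ± 0.13, FDR = 0.0242), also without overlap, and was called in 2 of the 7 fits with 1 library left out. Sec61g, the γ subunit, was scarce and scattered, at 1.30, 4.47 and 2.21 CPM fed and 1.93, 5.40, 6.38 and 4.32 CPM fasted; its change of 0.76 ± 0.56 had an FDR of 0.530, or 0.0211 with the block. Neither partner used for import after translation passed the test: Sec62 had a fitted change of 0.07 ± 0.10 (FDR = 0.788), with fed and fasted libraries overlapping, and Sec63 one of 0.21 ± 0.10 (FDR = 0.265).

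In the translocon-associated protein complex, 3 of 4 subunits were called higher, and all 4 were higher at an unadjusted p below 0.05. Ssr4, the δ subunit, was at 36.5, 47.1 and 38.0 CPM fed and 66.0, 71.3, 86.6 and 63.1 CPM fasted (0.82 ± 0.16, FDR = 0.0153). Ssr2, the β subunit, rose by 0.75 ± 0.14 (FDR = 0.0107) and Ssr1, the α subunit and the most abundant of the 4 by CPM, by 0.57 ± 0.11 (FDR = 0.0128), from 519 to 570 CPM fed to 724 to 871 CPM fasted. Ssr3, the γ subunit, had a fitted change of 0.30 ± 0.09 (FDR = 0.0837), although its fasted libraries lay above its fed ones. Tram1, a membrane protein that contacts nascent chains beside the channel, was at 86.7, 93.5 and 82.2 CPM fed and 160.5, 128.0, 153.2 and 154.8 CPM fasted. Its groups were well separated, with a log2 fold change of 0.77 ± 0.11 (FDR = 0.00301).

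In the oligosaccharyltransferase, which transfers the preassembled glycan to asparagine residues, 4 of 6 subunits were called higher. Of the 6 subunits 5 had an unadjusted p below 0.05, all higher. Stt3b, one of a pair of alternative catalytic subunits and the one used for sites missed during translation, was at 137.6, 147.0 and 112.3 CPM fed and 270.2, 236.3, 279.7 and 196.2 CPM fasted (0.89 ± 0.17, FDR = 0.0119). Ostc, a subunit of the complexes built on the other catalytic subunit, was at 69.2, 85.9 and 67.7 CPM fed and 131.2, 117.6, 145.1 and 133.7 CPM fasted (0.83 ± 0.13, FDR = 0.00458). The shared subunits Rpn1 and Ddost rose by 0.82 ± 0.16 (FDR = 0.0142) and 0.63 ± 0.14 (FDR = 0.0266). Stt3a, the catalytic subunit that acts beside the channel, had a fitted change of 0.35 ± 0.13 (FDR = 0.157), and Dad1, a small shared subunit, one of 0.46 ± 0.21 (FDR = 0.262).

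For the signal peptidase and the signal recognition particle, 0 of 11 tested genes were called in edgeR or DESeq2, 8 had an unadjusted p below 0.05, and every fitted difference was above 0. None of the 4 tested signal peptidase subunits met both limits, with log2 fold changes of 0.34 (Spcs2) to 0.50 (Sec11c, a catalytic subunit, 0.50 ± 0.15, FDR = 0.0807); Spcs2 and Spcs3 had FDR of 0.0335 and 0.0290 with changes below 0.5. The 7 tested genes of the signal recognition particle and its receptor ran from 0.21 for Srp9, part of the domain that slows translation, to 0.47 ± 0.09 for Srpr, the receptor's α subunit. Srpr had an FDR of 0.0118 and missed the size limit, and was called with the block (0.51, FDR = 5.37e-05).

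Of the 10 genes of the COPII coat, 3 were called higher, and 8 had an unadjusted p below 0.05, all higher. Sec13, part of the outer cage, was at 46.2, 50.3 and 38.3 CPM fed and 75.4, 74.5, 86.2 and 62.8 CPM fasted (0.73 ± 0.16, FDR = 0.0215). Sec23b, one of the paired inner-coat GTPase activators, was at 89.9, 95.3 and 78.7 CPM fed and 162.8, 128.8, 150.3 and 119.6 CPM fasted (0.67 ± 0.14, FDR = 0.0167). Sec24d, one of 4 cargo-binding Sec24 forms, was at 43.6, 49.1 and 42.3 CPM fed and 76.3, 62.7, 69.4 and 60.9 CPM fasted (0.58 ± 0.13, FDR = 0.0253). None of these groups overlapped, and each of the genes was called in 3 of the 7 fits with 1 library left out. The remaining COPII genes ran from -0.15 ± 0.08 for Sec24b (FDR = 0.364) to 0.39 ± 0.07 for Sec31a, the partner of Sec13, whose FDR was 0.00922 with a change below the size limit.

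The COPI coat had 0 of 7 genes called in edgeR (4 had an unadjusted p below 0.05), 1 called in DESeq2 and 1 with the block, in both cases Cope, the ε subunit (0.67 ± 0.19, FDR = 0.0662, or 2.12e-05 with the block). Copz1, the ζ subunit, had the smallest fitted change of the coat, 0.10 ± 0.12 (FDR = 0.732), and the median of the 7 was 0.27. Among the cargo and KDEL receptors, 4 of 6 were called higher, and 5 had an unadjusted p below 0.05, all higher. Surf4, a receptor for soluble cargo, was at 127.0, 145.1 and 142.3 CPM fed and 223.8, 194.8, 238.6 and 237.4 CPM fasted (0.70 ± 0.10, FDR = 0.00328), with wide separation between the groups. Kdelr2 (0.59 ± 0.15, FDR = 0.0426), Tmed2, a member of the p24 family (0.54 ± 0.14, FDR = 0.0475), and Lman1, a mannose-binding receptor (0.50 ± 0.12, FDR = 0.0335), each kept their call in 1 of those 7 fits, and Lman1 was not called in DESeq2. Tmed10, another p24 protein, had overlapping groups (282 to 418 CPM fed, 303 to 569 CPM fasted) and a fitted change of 0.23 ± 0.24 (FDR = 0.682).

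**Figure D2:**
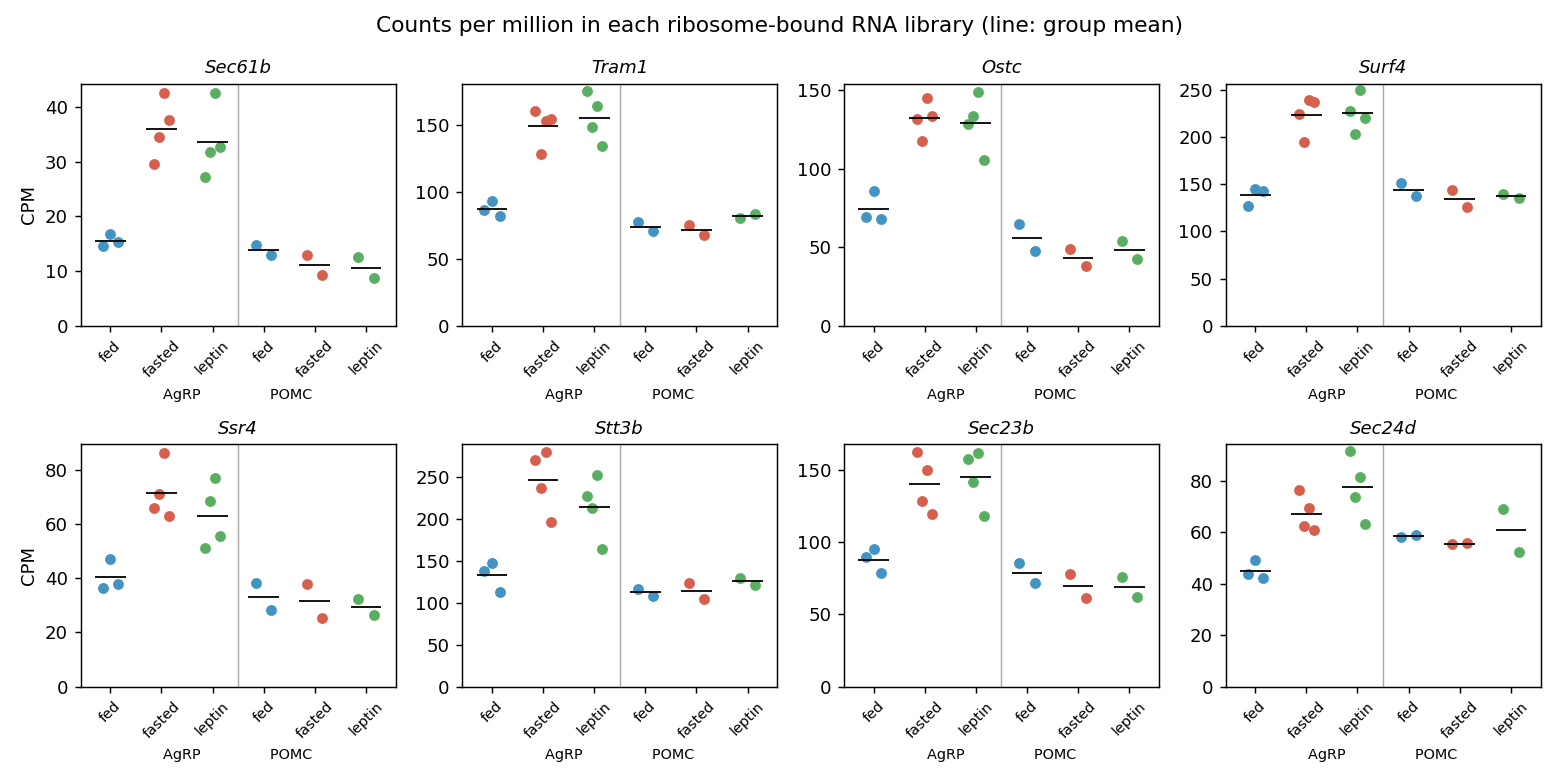
CPM (y axis, from 0) of 8 called genes in every library of AgRP neurons (left of the grey line) and POMC neurons (right), each neuron type scaled on its own libraries; lines are group means. In AgRP neurons the fasted and leptin points lie above the fed points for each of the 8 genes, and in POMC neurons the points of the 3 states lie close together.

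The log2 ratio of related genes within a library sets such genes side by side. The 4 pairs below were chosen after their values were seen, so the ratios are a description with no test. The ratio of Sec24d to Sec24b was -0.65 to -0.47 in fed AgRP libraries, 0.07 to 0.22 in fasted ones and 0.19 to 0.67 after leptin. The ratio of Sec23b to Sec23a was -1.34 to -1.31 fed, -1.05 to -0.74 fasted and -0.93 to -0.75 after leptin. That of Stt3b to Stt3a was 0.88 to 1.19 fed, 1.25 to 1.83 fasted and 1.07 to 1.67 after leptin, so the leptin libraries overlapped the fed ones. For Kdelr2 to Kdelr1 all 3 states overlapped, with 0.29 to 0.84 fed and 0.53 to 1.15 fasted.

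**Figure D3:**
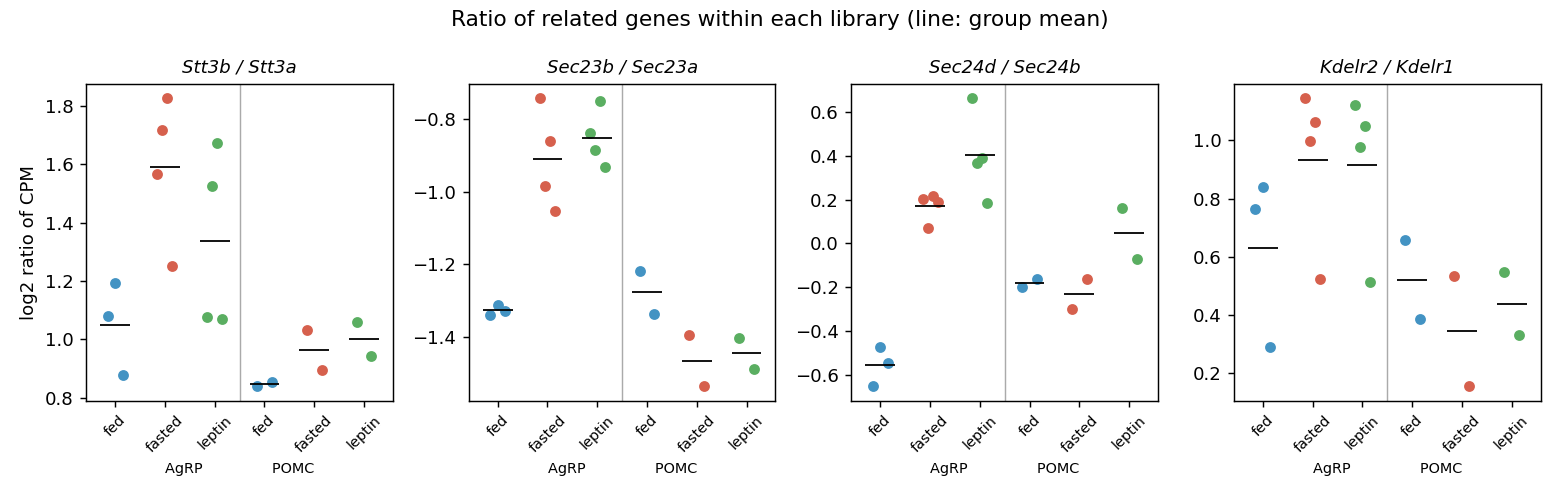
Log2 ratio of CPM of related genes within each library (y axis, not from 0) by neuron type and state, with group means as lines. The fasted AgRP points lie above the fed ones without overlap for Stt3b over Stt3a, Sec23b over Sec23a and Sec24d over Sec24b, and overlap for Kdelr2 over Kdelr1.

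Size of change was also set against transcript length and level. Across genes, which are not independent replicates, the rank correlation of log2 fold change with the length in the count table was -0.38 among the members and -0.16 over all genes tested, and with mean level it was -0.02 and 0.12. Per kilobase, Ddost was the highest of the set in fed AgRP neurons, at 108.5 ± 12.5 CPM per kb (SD, n = 3), and among the tested genes Sec24a was the lowest, at 2.31 ± 0.20 CPM per kb.

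The second comparison asked whether leptin given to fasted mice returns these genes toward the fed level within 3 h. No such shift was detected for this set. In edgeR and in DESeq2, 0 of 50 genes were called in either direction between leptin and fasted AgRP libraries (1 had an unadjusted p below 0.05, higher, and 0 lower), where 1.19% of all genes were called higher and 0.634% lower. The median log2 fold change was -0.019 and the range -0.20 to 0.26. The genes with the lowest p were Sec24a (0.26 ± 0.10, FDR = 0.428), Sec61a1 (0.24 ± 0.12, FDR = 0.650) and Sec24d (0.20 ± 0.12, FDR = 0.783), each higher after leptin. For the 5 genes that fasting raised most, the differences were -0.10 ± 0.14 for Sec61b, -0.20 ± 0.15 for Stt3b, -0.03 ± 0.12 for Ostc, -0.18 ± 0.15 for Ssr4 and -0.01 ± 0.15 for Rpn1. The lowest of all 50 was that of Stt3b, at an FDR of 0.990, or 0.0283 with the block and within the size limit. In this comparison the 6 AgRP neuron markers were all lower (median -0.25, 2 called lower with the block), and the astrocyte, oligodendrocyte and microglial lists had medians of 0.10, 0.12 and 0.14 with 0 called; their part was not tested.

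Set against the same 3 fed libraries, the leptin libraries gave a like picture. Of the 50 genes 18 were called higher and 0 lower, against 3.73% and 1.75% of all genes, with a median of 0.37. With the block 21 were called higher, against 5.34% of all genes; the 3 added were Sec61g, Ssr1 and Cope. In 35 genes the 4 leptin libraries lay above all fed ones, against 12.3% of all genes. The largest differences were those of Sec61b (1.11 ± 0.16, FDR = 0.00248), Sec61a1 (0.85 ± 0.13, FDR = 0.00409), Tram1 (0.83 ± 0.11, FDR = 0.00172), Rpn1 (0.81 ± 0.16, FDR = 0.0123), Ostc (0.80 ± 0.13, FDR = 0.00469) and Sec24d (0.79 ± 0.13, FDR = 0.00497). Surf4 (0.70 ± 0.10, FDR = 0.00248), Sec23b (0.72 ± 0.14, FDR = 0.0102), Stt3b (0.69 ± 0.17, FDR = 0.0287) and Ssr2 (0.69 ± 0.14, FDR = 0.0136) followed. The count was 6 without fed replicate 4, 8 without fed replicate 1, 10 without leptin replicate 3 and 9 without the libraries numbered 2. Over all genes the calls higher in these fits were 268, 312, 325 and 333 in turn, against 500 with every library. Scaling by library size alone left 4 of the set called, and the fit without the filter 9. The comparisons with fasted and with leptin libraries share their fed controls. The AgRP neuron markers were again all higher (6 of 6, median 0.31, Agrp called), at 2156 to 6480 CPM after leptin. The 4 microglial markers tested were all lower (median -0.51, 0 called), at 17.1 to 37.2 CPM after leptin. Of 5 astrocyte markers 3 were lower (median -0.31, 0 called, 1 called lower with the block). Of 6 oligodendrocyte markers 5 were lower (median -0.18, 0 called). The part of these marker differences was not tested.

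**Figure D4:**
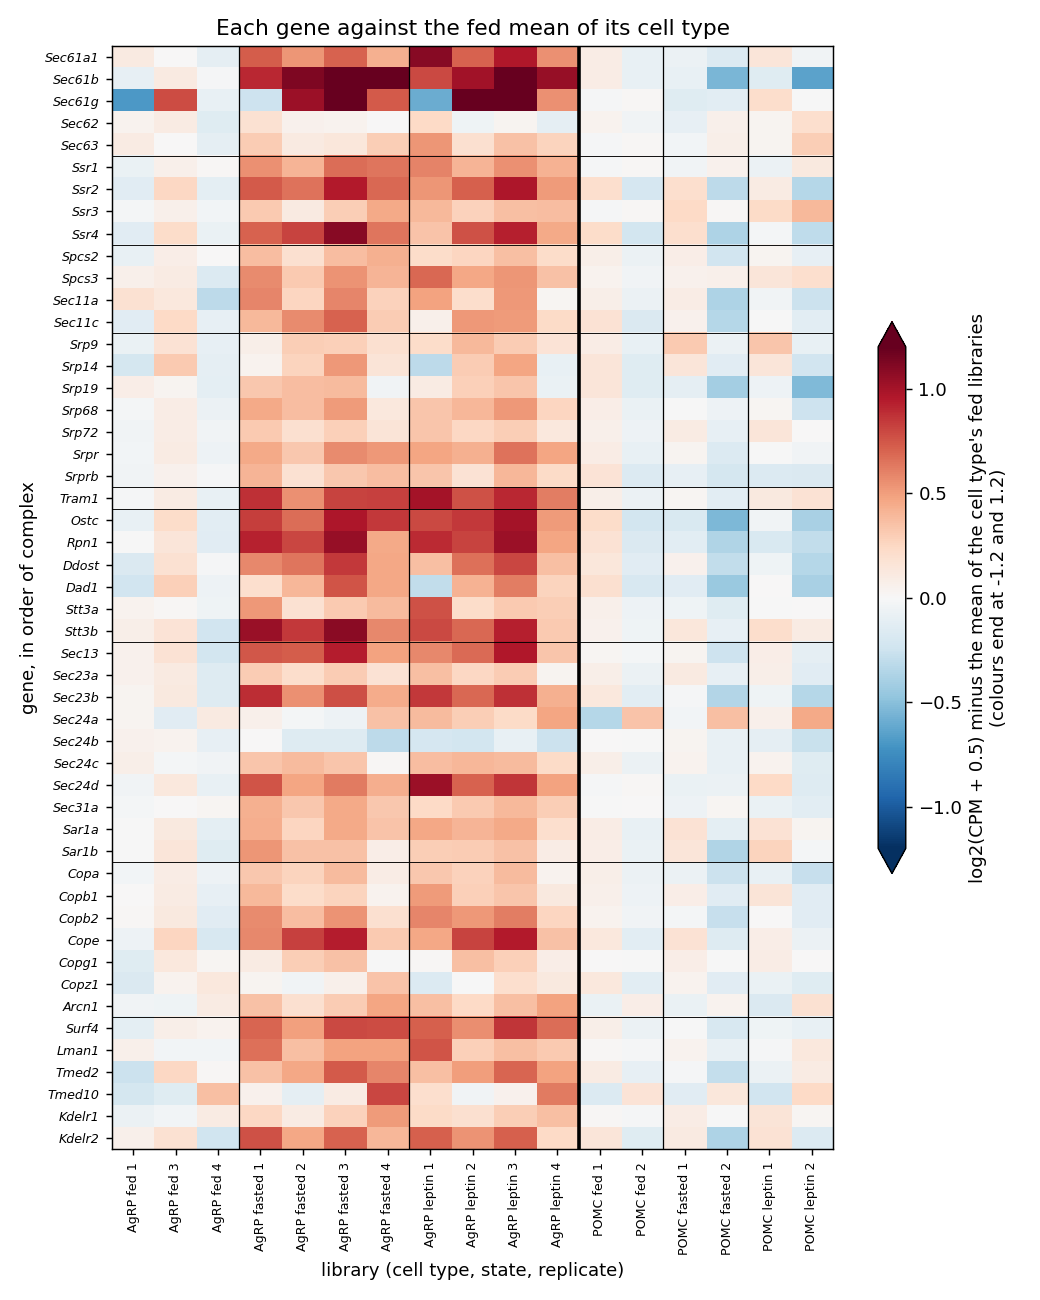
Each tested gene (rows, in order of complex) in each library (columns), as log2(CPM + 0.5) minus the mean of the fed libraries of that neuron type; thick lines part AgRP from POMC libraries. The 8 fasted and leptin AgRP columns are red across nearly all rows, paler for the signal recognition particle and COPI genes, and the POMC columns are near white or pale blue.

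POMC neurons were sampled in the same 3 states with 2 libraries each. There, 0 of 50 genes were called in any of the 3 comparisons in edgeR or in DESeq2, and 0 had an unadjusted p below 0.05 in edgeR. Of all 13412 genes tested, edgeR called 0% in either direction in each comparison. DESeq2 called 0 higher and 3 lower for fasted against fed, 9 and 1 for leptin against fasted, and 4 and 3 for leptin against fed. Calls were thus few over the whole table, and a difference of the AgRP size in 1 gene may not be detectable with 2 libraries per state. In POMC neurons 13 of the 50 genes were above 0 for fasted against fed, with a median of -0.051 and a range of -0.37 to 0.14. Sec61b was at 14.8 and 13.0 CPM fed, 13.0 and 9.32 CPM fasted and 12.5 and 8.74 CPM after leptin, so the fed and fasted libraries met near 13.0 CPM and no fasted library exceeded the higher fed one. Tram1 was at 77.7 and 70.4 CPM fed and 75.0 and 67.7 CPM fasted, and Surf4 at 150.8 and 137.3 CPM fed and 143.6 and 125.8 CPM fasted. The lowest p for fasting were those of Ostc (-0.37 ± 0.23), Rpn1 (-0.25 ± 0.17) and Dad1 (-0.30 ± 0.22), each with an FDR of 1.00. For leptin against fasted (median 0.037) they were Tram1 (0.20 ± 0.12), Sec61g (0.30 ± 0.22) and Sec24b (-0.16 ± 0.12), and for leptin against fed (median -0.0075) Ssr3 (0.31 ± 0.14), Spcs3 (0.17 ± 0.11) and Sec24b (-0.19 ± 0.12). Leaving out fasted replicate 1 moved the median for fasted against fed to -0.15, and leaving out fasted replicate 2 moved it to 0.027. For fasted against fed, 2 of 3 POMC neuron markers were lower (median -0.35), at 1740 to 2830 CPM fed and 1496 to 2060 CPM fasted. Of the AgRP neuron markers 5 of 6 were higher (median 0.41), as were 5 of 6 for oligodendrocytes (median 0.12). Lower were 4 of 5 for astrocytes (median -0.15) and 3 of 4 for microglia (median -0.22). In these lists 0 were called and 0 had an unadjusted p below 0.05, and their part was not tested.

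The difference in the fasting response between the neuron types was tested as an interaction over all 17 libraries. The fitted difference was positive for 48 of 50 genes, with a median of 0.50 on the log2 scale. Of the 50, 30 had an unadjusted p below 0.05, all with the larger change in AgRP neurons. Over all 13435 genes tested, 756 were higher and 448 lower at that p. After adjustment 0 of the 50 were called in edgeR and 5 in DESeq2 (Sec61b, Tram1, Ostc, Rpn1 and Surf4). Over all genes edgeR called 0.141% higher and 0.0223% lower. With the replicate number as a block within each neuron type, 24 of the 50 were called, all with the larger change in AgRP neurons, against 4.33% of all genes. The POMC numbers are not shown to pair the libraries, and the fit rests on them too. The 24 were Sec61a1 and Sec61b of the channel, Ssr1, Ssr2, Ssr4 and Tram1, Sec11a and Sec11c, Srpr and Srprb, Ostc, Rpn1, Ddost, Dad1 and Stt3b, Sec13, Sec23b and Sec24d, Copb2 and Cope, and Surf4, Lman1, Tmed2 and Kdelr2. The largest differences with the block were 1.54 ± 0.15 for Sec61b (FDR = 3.73e-05; 1.52 ± 0.29, FDR = 0.0526 without it), 1.21 ± 0.13 for Ostc (FDR = 9.30e-05; 1.19 ± 0.25, FDR = 0.0726 without it) and 1.04 ± 0.12 for Rpn1 (FDR = 0.000137; 1.07 ± 0.27, FDR = 0.140 without it). Surf4 differed by 0.84 ± 0.09 (FDR = 0.000128; 0.79 ± 0.16, FDR = 0.0650 without it). In the same fit without the block the oligodendrocyte (6 of 6), astrocyte (5 of 5) and microglial (4 of 4) markers were all on the lower side (medians -0.42, -0.18 and -0.52) and 5 of 6 AgRP neuron markers on the higher side (median 0.41), with 0 called and 0 at an unadjusted p below 0.05; their part was not tested.

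Levels were then compared between the neuron types. In this comparison the block was the replicate number alone, shared across the Cre lines, whose libraries are not shown to pair. Over the 3 states together 15 of 50 genes were called higher in AgRP than in POMC neurons and 0 lower, against 6.51% and 6.45% of all 13435 genes, with a median of 0.39. The 10 largest were Sec61b (1.09 ± 0.12, FDR = 1.13e-05), Ostc (1.07 ± 0.11, FDR = 4.79e-06), Ssr2 (0.88 ± 0.12), Sec13 (0.86 ± 0.11), Cope (0.84 ± 0.12), Ssr4 (0.78 ± 0.13), Rpn1 (0.72 ± 0.11), Sec11a (0.67 ± 0.12), Sec23b (0.67 ± 0.10) and Tram1 (0.67 ± 0.08), each called in the 17 fits that left out 1 library. Of the glial markers, 4 of 5 for astrocytes were lower in AgRP libraries (median -0.42; 1 called, 3 with the block), as were 4 of 4 for microglia (median -0.38; 0 called, 1 with the block), 5 of 6 for oligodendrocytes (median -0.15, 0 called) and 3 of 4 for tanycytes and ependyma (median -0.31; 0 called, 2 with the block); their part was not tested.

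The same comparison was then fitted within each state. In fed mice the median AgRP minus POMC difference was 0.10, and 0 of 50 genes were called in edgeR or DESeq2 (1 had an unadjusted p below 0.05 in each direction). Of all 13435 genes 1.7% were called higher and 203 genes lower in that state. A fit on the 5 fed libraries alone also called 0 of the 50. In fasted mice the median was 0.56 with 26 genes called higher and 0 lower, against 8% of all 13435 genes higher and 716 genes lower. After leptin it was 0.49 with 21 called higher and 0 lower, against 6.41% higher and 636 genes lower. Rpn1 was 0.02 ± 0.19 higher in AgRP neurons in fed mice (FDR = 0.983), 1.08 ± 0.19 in fasted mice (FDR = 0.00184) and 1.06 ± 0.19 after leptin (FDR = 0.00244). Sec61b went from 0.09 ± 0.20 (FDR = 0.902) to 1.61 ± 0.21 (FDR = 0.000173) and 1.57 ± 0.21 (FDR = 0.000249). Surf4 was on the POMC side in fed mice, at -0.13 ± 0.12 (FDR = 0.746), and on the AgRP side in fasted mice, at 0.65 ± 0.11 (FDR = 0.00143). Sec24d was lower in AgRP neurons in fed mice (-0.45 ± 0.16, FDR = 0.196) and was not called in any state.

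**Figure D5:**
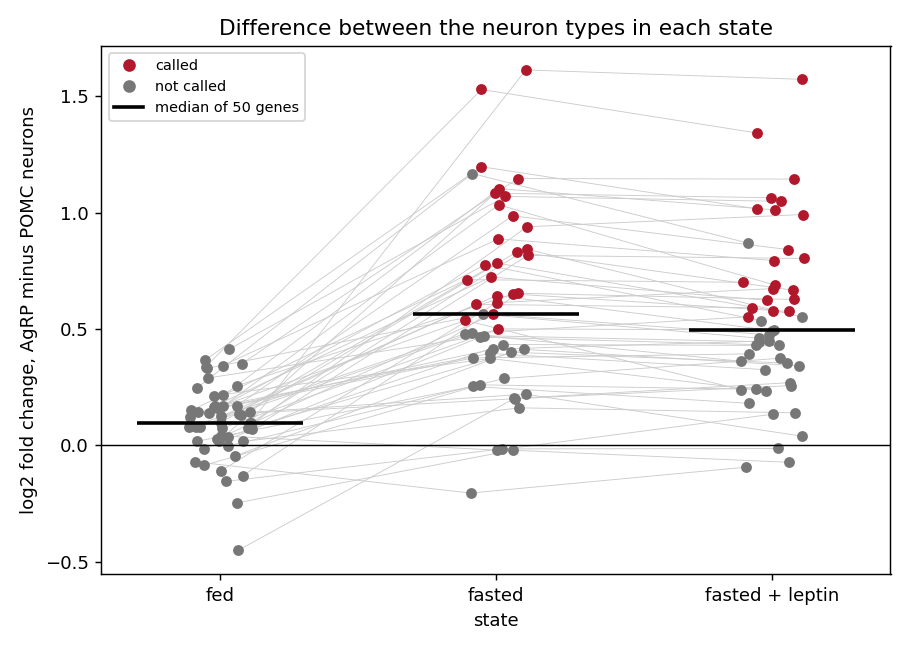
Log2 fold change of AgRP over POMC neurons (y axis) for the 50 genes in each state (x axis), with lines joining a gene's values, black bars for medians and red for called genes. The medians are 0.10 in fed, 0.56 in fasted and 0.49 in leptin mice, and red points appear in the latter states alone.

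Promoter accessibility was read from ATAC-seq of AgRP neuron nuclei, a measure the choice of genes did not use, with 2 libraries of 4 pooled mice per state. Of the 54 genes, 53 had a peak within 500 bases of an annotated start, and each of those peaks covered a start. Between fasted and fed libraries 0 were called more open and 1 less open, against 0.616% and 3.66% of the promoter peaks of expressed genes, and 0 had an unadjusted p below 0.05 toward more open against 9 toward less open. The promoter peaks of all expressed genes were not counted at that p. Of the 53 peaks 11 were above 0, and of the 10713 promoter peaks of expressed genes 1347 were. The median log2 fold change of the 53 was -0.18, and that of the promoter peaks of all expressed genes -0.23. For the 17 genes called higher in ribosome-bound RNA it was -0.23, with a range of -0.42 to 0.10. The peak called was that of Sec62 (chromosome 3, 30792751 to 30794054, GRCm38), at 72.4 and 76.4 CPM in fed, 48.6 and 51.6 CPM in fasted and 46.1 and 62.2 CPM in leptin libraries (-0.57 ± 0.16, FDR = 0.0103); the count less open was 0 without fasted replicate 1 and 3 without fed replicate 1. The promoter peak of Sec61b was at 68.1 and 62.1 CPM fed and 55.6 and 55.0 CPM fasted (-0.23 ± 0.15, FDR = 0.250). Between leptin and fasted libraries 0 peaks of the set were called in edgeR or DESeq2 in either direction and 0 had an unadjusted p below 0.05, against 0.0933% more open and 0.0373% less open among promoter peaks of expressed genes.

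Genes of this route are known targets of the unfolded protein response, whose factors bind short elements near the start site. RefSeq promoters (GRCm38.p6, 250 bases before to 50 after each start) were found for 42 of the 54 genes. Both strands were searched for the UPR element TGACGTGG, which holds the core GACGTG, for the ER stress element (CCAAT, then 9 of any base, then CCACG) and for its second form (ATTGG, 1 base of any kind, then CCACG). The UPR element was in 5 of 42 promoters of the set (11.9%), in 0.714% of all 27025 promoters and in 1.11% of those of genes tested in AgRP neurons. The core GACGTG was in 15 (35.7%), against 7.15% and 10.9%. Neither form of the ER stress element was in any of the 42 (all promoters 0.137% and 0.0444%). Of the 17 called genes 10 have a promoter in the table, and Sec61a1, Ssr2, Tram1, Ostc, Lman1, Tmed2 and Kdelr2 do not. The UPR element was in 1 of these 10 and 3 of 28 tested but not called, and the core in 3 and 11. GGGCGG, the GC box, was in 71.4% of the set and 69.2% of promoters of tested genes, and CCAAT in 45.2% and 42.5%.

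The 30 bases around each UPR element of the set are shown because all 5 lie within 30 bases of the start; capitals mark the element, read here on the gene's strand, where 0 is the first base after the 250 upstream. Sec24d is the one called gene among them, Sec23a, Copb1 and Copb2 were tested and not called, and Kdelr3 was below the level tested.
Sec24d, chr3:123267459-123267488, plus strand, element from -26 to -19: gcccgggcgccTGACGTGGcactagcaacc
Sec23a, chr12:59011993-59012022, minus strand, element from 6 to 13: ctcctccccttTGACGTGGcagaggcggca
Copb1, chr7:114254690-114254719, minus strand, element from -28 to -21: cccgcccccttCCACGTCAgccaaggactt
Copb2, chr9:98563713-98563742, plus strand, element from -7 to 0: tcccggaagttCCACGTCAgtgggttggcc
Kdelr3, chr15:79516367-79516396, plus strand, element from -30 to -23: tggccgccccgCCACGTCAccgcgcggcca

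Longer stretches are shown for 3 Sec24 genes, picked by their values: Sec24d as the called gene with the element, and Sec24a (0.09 ± 0.11, FDR = 0.755) and Sec24b as those of the smallest change in the coat, so the contrast follows from the choice and tests nothing. The promoter of Sec24c, not printed, holds the core GACGTG. Capitals again mark the UPR element, which these 300 bases hold in Sec24d alone; the starts RefSeq gives for Sec24a and Sec24b are not the outermost ones of the gene annotation.
Sec24d, chr3:123267246-123267545, plus strand: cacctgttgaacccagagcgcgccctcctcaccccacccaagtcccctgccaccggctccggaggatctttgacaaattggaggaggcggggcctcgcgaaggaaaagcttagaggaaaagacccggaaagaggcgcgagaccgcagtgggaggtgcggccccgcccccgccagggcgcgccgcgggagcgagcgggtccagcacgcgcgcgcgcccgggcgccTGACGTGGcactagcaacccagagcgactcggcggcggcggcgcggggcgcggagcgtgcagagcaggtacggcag
Sec24a, chr11:51756785-51757084, minus strand: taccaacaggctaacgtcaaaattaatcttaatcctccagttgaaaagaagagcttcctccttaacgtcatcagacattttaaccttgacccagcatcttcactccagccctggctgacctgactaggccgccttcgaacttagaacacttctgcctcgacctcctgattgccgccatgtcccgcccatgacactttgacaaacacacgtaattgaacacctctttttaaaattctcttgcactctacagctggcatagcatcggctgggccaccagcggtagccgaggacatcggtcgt
Sec24b, chr3:130060858-130061157, minus strand: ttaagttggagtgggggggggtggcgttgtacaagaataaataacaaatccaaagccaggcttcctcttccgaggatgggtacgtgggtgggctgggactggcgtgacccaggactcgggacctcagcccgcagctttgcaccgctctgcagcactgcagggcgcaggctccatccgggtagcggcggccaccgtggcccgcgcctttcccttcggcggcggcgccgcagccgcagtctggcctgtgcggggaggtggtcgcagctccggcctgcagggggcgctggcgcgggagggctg

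Other genes near this route were examined as lists in the same fit. Of 14 tested relatives of the translocon and of other insertion routes, 0 were called in edgeR or DESeq2 (3 had an unadjusted p below 0.05; median 0.10), and of 26 further oligosaccharyltransferase and N-glycan genes 1 was called, Krtcap2, a small subunit of the Stt3a complexes (0.76 ± 0.13, FDR = 0.00750). Of 19 COPII and COPI partners 0 were called in edgeR or DESeq2 (9 had an unadjusted p below 0.05, all higher; median 0.30). Of 12 other cargo receptors 0 were called in edgeR (7 had an unadjusted p below 0.05), 1 in DESeq2 (Tmed3) and 2 with the block (Tmed3 and Yipf5), with a median of 0.32. Of 19 coat genes of the later secretory and endocytic route (clathrin and its adaptors), 0 were called in edgeR or DESeq2 (3 had an unadjusted p below 0.05), with a median of 0.12. Of 8 tested regulators of ER capacity 3 were called higher, and 4 had an unadjusted p below 0.05, all higher. The called ones were Creb3l2, an ER-anchored transcription factor (0.71 ± 0.15, FDR = 0.0165), Ern1, the sensor kinase IRE1α (0.56 ± 0.09, FDR = 0.00414), and Creb3l1, a relative of Creb3l2 (0.51 ± 0.13, FDR = 0.0451). Xbp1, the factor whose mRNA IRE1α splices, had a fitted change of 0.37 ± 0.10 (FDR = 0.0554), Atf6, an ER-anchored factor released by cleavage, one of 0.24 ± 0.12 (FDR = 0.325) and Eif2ak3, the kinase PERK, one of -0.05 ± 0.10 (FDR = 0.870). After leptin 0 of the 8 were called against fasted (2 lower at an unadjusted p below 0.05) or against fed (3 higher at that p). Against fasted, Ern1 was at -0.41 ± 0.08 (FDR = 0.0197, within the size limit), Creb3l2 at -0.51 ± 0.13 (FDR = 0.0917, and called lower with the block, FDR = 0.000163) and Creb3l1 at -0.21 ± 0.12 (FDR = 0.764).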

How the data were processed

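Per the labels and the methods of the study, ribosome-bound RNA was depleted of ribosomal RNA, made into Nextera XT libraries and sequenced on a NextSeq500. The authors used HISAT2 and the mm10 build for alignment and featureCounts for gene totals, with gene models altered to lessen overlap between transcripts, so the deposited values are raw counts; accessibility values are deposited counts of ATAC-seq reads in peaks (Bowtie2, MACS2, bedtools). Tool versions are not given in the sources used here. Accessibility libraries held 8263234 to 17190963 counted reads over all deposited peaks, and whole-arcuate RNA was not analysed here.

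From the counts, genes with a mean above 1 CPM were fitted with edgeR 4.0.16 (R 4.3.3; TMM scaling, quasi-likelihood test, Benjamini-Hochberg adjustment over all genes tested), separately for AgRP and POMC neurons and over all 17 libraries for comparisons between them. A call needs FDR below 0.05 and a log2 fold change beyond 0.5. Accessibility was fitted over the 102237 peaks with a mean above 1 CPM. DESeq2 1.42.0, scaling by library size alone, no filter, a replicate block and leaving out each library were alternatives, and the fit was tested on simulated data. The block was the replicate number, taken within each neuron type for the interaction and shared across the lines for AgRP against POMC neurons. Same-numbered AgRP libraries, whose numbers come from the labels, correlated in their deviations from group means at 0.565 to 0.838 over 10 pairs (median 0.72). Differently numbered ones ran from -0.67 to 0.67 over 30 pairs (median -0.24), so the ranges overlap. On these values the numbers were taken to pair the AgRP libraries. With 2 POMC libraries per state the deviations mirror each other, leaving 3 values of 0.760 to 0.794, and the POMC numbers are not shown to pair. The genes named are the members called in AgRP fasted against fed with or without the block, in other comparisons up to 10 called members by size or the 3 with the lowest p, the highest and lowest member of each complex, members whose call turns on 1 library, and called related genes; any other was named after its values were seen. Promoters shown are those of called members with a stress element and of the 2 least changed members of the same complex. The members and lists were chosen with earlier results of these data known.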

Additional observations from a re-analysis of the deposited data

Results flagged for a closer look

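Single libraries stood apart from the others of their group for 4 of the 100 groups examined (50 genes in fasted and in leptin AgRP libraries), where chance alone gives about 1 in 20. Srp19 was at 16.6 CPM in fasted replicate 4 and 21.5 to 22.4 CPM in the other fasted libraries. Sec24c was at 87.6 CPM in fasted replicate 4 and 109.2 to 112.9 CPM in the others. Stt3a was at 107.5 CPM in leptin replicate 1 and 73.6 to 78.6 CPM in the others. Lman1 was at 143.9 CPM in leptin replicate 1 and 104.2 to 109.7 CPM in the others.

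The interaction test of edgeR with the replicate block called the fasting effect different between AgRP and POMC neurons for 24 of the 50 genes. Without the block it called 0. Over all genes the share called higher was 4.33% with the block and 0.141% without it. The POMC numbers are not shown to pair the libraries. All 24 had the larger change in AgRP neurons, from 0.52 ± 0.11 for Srprb (FDR = 0.00726) to 1.54 ± 0.15 for Sec61b (FDR = 3.73e-05) on the log2 scale. Besides genes called for fasting in AgRP neurons, they included Dad1 (0.73 ± 0.13, FDR = 0.00409), Sec11a (0.60 ± 0.12, FDR = 0.00673) and Copb2 (0.56 ± 0.10, FDR = 0.00215).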

How the results depend on the processing

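Of 1112 alternative values, 950 kept their direction and side of the threshold or stayed near the main value. Counts of 0 in both the main and the alternative fit are among these 950. Of the others, 123 lost a call, 14 gained one, 23 counts or medians moved, and 2 values of genes named by the rule above changed sign. With scaling by library size alone, the genes called higher were 3 for AgRP fasted against fed and 4 for leptin against fed, and over all genes the fasting calls were 148 higher and 90 lower against 378 and 143; for AgRP against POMC neurons they were 1230 and 655 against 875 and 866. Without a filter fasted against fed gave 12 and leptin against fed 9. Leaving out the libraries numbered 2 (chosen after seeing the data) gave 8 for fasted and 9 for leptin against fed. Leaving out 1 library at a time gave 4 to 16 for fasted against fed, 6 to 19 for leptin against fed, 13 to 19 for AgRP against POMC, and 0 to 3 promoter peaks less open, where the lone library of an arm is assumed to vary like the other groups. AgRP against POMC gave 0 on fed libraries alone and, in fits by state chosen after seeing the data, 0 in the fed and 26 in the fasted state. The difference in fasting effect gave 24 with the replicate block, where all genes gave 582 higher and 254 lower against 19 and 3. In DESeq2 it gave 5, where all genes gave 124 and 41. Over all 50 genes, signs turned for fasted against fed in 3, none called: Sec24a (-0.018 without fasted replicate 4), Tmed10, whose fold change ran from -0.017 (without fasted replicate 4) to 0.41 when 1 library was left out, and Sec62, from -0.021 (without fed replicate 4) to 0.12. The replicate block also exchanged Ssr1 for Spcs3 among the genes higher in AgRP than in POMC neurons, and it changed no other call of a gene in the set beyond those named in the results; in POMC neurons, whose numbers are not shown to pair, it called 0 of the set in each comparison and, over all genes, 0 higher and 3 lower, 7 and 1, and 26 and 18. The cause of these shifts was not tested. With 2 libraries per state, POMC neurons and accessibility are the least precise.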
